A study of Mus musculus with 6 samples.

Results

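The genes described here make cholesterol and fatty acids or control that synthesis. They were chosen by name, as every probe set that the array's probe table assigns to one of 32 genes of the sterol pathway, the SREBP regulators and fatty acid synthesis. Of these, 31 genes had 72 of the 45101 probe sets, and no probe set was matched to the thiolase gene Acat2. A filter on dim probe sets (mean log2 level under 5.96) left 63 of the 72 for testing, and every one of the 31 genes had at least 1 of them. The study measured total RNA of 2T3 cells, a clonal mouse calvarial pre-osteoblast line immortalised with a viral T antigen, on 1-colour Affymetrix arrays. There were 3 rotated samples, kept for 3 days in a rotating wall vessel, and 3 static samples, kept for 3 days in static culture, all from passages 8 to 10. In such a vessel a slowly turning, medium-filled cylinder keeps cells from settling, which is used on the ground as a model of microgravity. The titles name the rotated samples only by the letter R, taken here as rotated, while for static 2 and static 3 another label field gives simulated microgravity although the titles say static; the titles were followed. The line is a single clone, and whether the samples came from separate cultures is not stated, so the p-values describe the scatter among these 6 samples, some of which may be technical.

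Cells make cholesterol from acetyl-CoA through mevalonate, isoprenoid units, squalene and lanosterol. The transcription factors SREBP-1 and SREBP-2, encoded by Srebf1 and Srebf2, drive the enzyme genes. They are held in the endoplasmic reticulum by the escort protein Scap and the Insig proteins while sterols are plentiful, and are released to the nucleus when sterols run low. SREBP-1 acts more on fatty acid synthesis and SREBP-2 more on the sterol enzymes. Osteoblasts need these routes for membranes, for the prenyl groups of small GTPases and for hedgehog signalling, and Fdps is the enzyme that nitrogen-containing bisphosphonates inhibit.

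The 6 arrays had median deposited signals of 70.0 to 130.1. Osteoblast lineage markers were matched for 10 of 13 genes, all above the filter, and their summed signal was 56455 to 72303 in the rotated and 76639 to 85669 in the static samples. Of these 10 genes 7 had an unadjusted p under 0.05 in limma, all lower in the rotated samples, against 8.24% of all genes, and the part of this shift in the differences given below was not tested. Adipocyte markers were matched for 10 of 12 genes, of which 5 passed the filter, with sums of 4929 to 5296 in rotated and 4950 to 7061 in static samples. The adipocyte-defining Adipoq lay between 22.9 and 28.7 in the rotated and between 29.1 and 74.3 in the static samples, below the filter. Retn, Cd36, Lep and Cidec also lay below it. Fabp4 was the brightest of the list, at 2439 to 2876.5 in the rotated and 2931.1 to 4697.7 in the static samples. It differed by -0.59, and only its unadjusted p in limma, 0.032, was under 0.05 in this list. Lpl, Cebpa, Pparg and Plin4 differed by 0.25, -0.13, -0.26 and 1.25. Of the macrophage, endothelial, muscle and hepatocyte markers 6 of 9, 1 of 5, 3 of 5 and 0 of 4 passed the filter. Rotated 1 had an actin 3' over 5' signal ratio of 3.21, against 1.48 to 1.57 for the other rotated arrays and 1.29 to 1.37 for the static arrays. Static 1 had the highest 10th percentile of signal, 22.1, where the other arrays had 4.5 to 7.2.

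Between the culture conditions, most of the 31 genes stood somewhat lower in the rotated samples, but none passed after adjustment over all probe sets. In value, 23 genes were lower and 8 higher, with a median log2 difference (rotated minus static) of -0.25, against 0.03 over all 12554 genes tested, of which 46.8% were lower. Each gene is represented here by its tested probe set with the highest mean. Of the 32 other tested probe sets 21 were lower and 11 higher in the rotated samples, and 11 of them, in 10 genes, had the opposite sign to the one that represents the gene. In limma 0 of 31 genes passed at an adjusted p under 0.05, as did 0% of all genes (smallest adjusted p among the 31 genes 0.592, for Ebp). At an unadjusted p under 0.05 there was 1 gene of 31, lower, against 8.24% of all genes in either direction and 3.74% lower. In bulk RNA fewer cells of a kind and less RNA per cell cannot be told apart. The median rested on single arrays: it was 0.08 without static 2 and 0.01 without rotated 1, and -0.53 without static 1 and -0.49 without rotated 2. A covariate for the actin ratio gave 0.10, array weights gave -0.04 and median centring gave -0.12, where all genes had a median of 0.13.

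The larger movement in these genes ran with the sample number, in both culture conditions. Rotated 2 and static 2 had the highest levels of their groups for 24 of 31 genes, against 14.9% of all genes. In 18 of 31 genes sample 2 was highest, sample 3 next and sample 1 lowest in both groups, an order that 5.96% of all genes had. For the 17 sterol enzymes the mean log2 level, set against the static mean, was -0.76, 0.34 and -0.36 in rotated 1, rotated 2 and rotated 3, and -0.73, 0.77 and -0.04 in static 1, static 2 and static 3. Each rotated sample thus lay close to or below the static sample of its own number. Sample 1 was lowest in both groups for 23 of 31 genes, against 18.3% of all genes. What a sample number stands for is not stated in the labels, and the pattern was noticed in these data before it was counted.

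In a limma fit with culture condition and sample number as terms, 25 of 31 genes had an unadjusted p under 0.05 for the sample number, against 17.9% of all genes. After adjustment over all probe sets 0 genes passed, members included, the smallest adjusted p among them being 0.0855 for Idi1. The count was 16 of 17 for sterol enzymes, 4 of 6 for the regulators with the sterol carrier Stard4, and 5 of 8 for fatty acid synthesis. With the values as deposited it was 26 of 31 genes (18.2% of all genes), and with median centring 27 of 31 (26.6% of all genes). The lowest samples of both groups are rotated 1, with the actin ratio of 3.21, and static 1, with the raised 10th percentile, and the part of these array properties in the pattern was not tested. Between the other arrays, sample 2 exceeded sample 3 in both groups for 25 of 31 genes, against 35.1% of all genes.

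**Figure D1:**
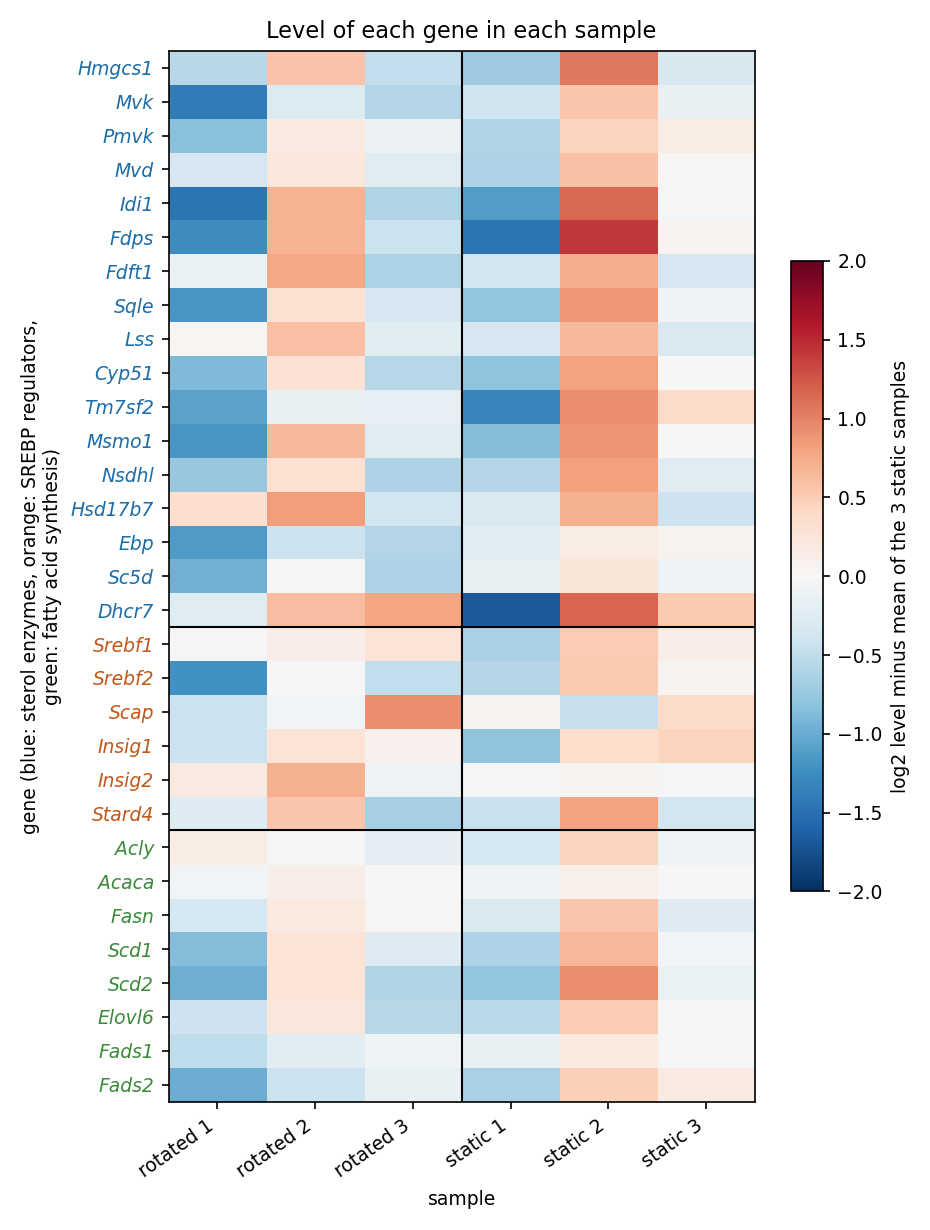
Log2 level of each of the 31 genes (rows, in pathway order) in the 3 rotated samples and the 3 static samples (columns), as the difference from the mean of the static samples; red is higher and blue lower. The columns of rotated 2 and static 2 are red for most sterol enzymes and those of rotated 1 and static 1 mostly blue.

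Single enzymes show the size of this spread. Fdps, farnesyl diphosphate synthase, had deposited signals of 1466.5, 5906.5 and 2737.2 in rotated 1, rotated 2 and rotated 3, against 1274.5, 10016.0 and 3682.4 in static 1, static 2 and static 3. Sample 2 thus exceeded sample 1 by 4.03-fold in the rotated and 7.86-fold in the static group, and the groups overlapped widely. The isomerase gene Idi1, which makes the active isoprenoid unit, had 858.6, 4254.2 and 1729.9 in the rotated samples, against 1150.3, 5914.1 and 2527.3 in the static samples. Sample 2 over sample 1 was 4.95-fold in the rotated and 5.14-fold in the static group. Msmo1, the sterol C4-methyl oxidase, had 1348.7, 4955.6 and 2699.7 in the rotated samples, against 1646.6, 6014.2 and 3098.6 in the static samples. Sqle, squalene epoxidase, had 1310.8, 3780.6 and 2443.7 in the rotated samples, against 1692.3, 5729.0 and 2883.6 in the static samples. For Idi1, Msmo1 and Sqle each rotated sample lay below the static sample of its number, while the groups as a whole overlapped. These 4 genes were chosen after their values were seen.

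Promoters of members were searched because the genes moved together across the samples. RefSeq promoters of assembly GRCm38.p6, 300 bases around an annotated start, were matched for 25 of the 32 genes (33 promoters). The 25 include Acat2, which had no probe set. No promoter was matched for Fdps, Fdft1, Sqle, Scd1, Scd2, Fads1 and Stard4, so the counts below do not cover them. The classical sterol regulatory element, searched on both strands as TCACNCCAC, was found in 1 of 25 genes, Hmgcs1, and in 1.44% of all 27025 genes with a promoter. A CCAAT box was found on either strand in 20 of 25 genes and in 41.1% of all genes. The E-box CACGTG, its own reverse complement, was found in 5 of 25 genes and in 8.09% of all genes. A match is a description of these letters, not a site. The promoters printed are those of Hmgcs1, for the only element match, Idi1 and Msmo1, for the smallest p for sample number, and Mvk and Ebp, for the smallest p between conditions. Capitals mark the element and the CCAAT boxes, which read ATTGG on the other strand; no marked motifs overlap in these promoters.
Hmgcs1: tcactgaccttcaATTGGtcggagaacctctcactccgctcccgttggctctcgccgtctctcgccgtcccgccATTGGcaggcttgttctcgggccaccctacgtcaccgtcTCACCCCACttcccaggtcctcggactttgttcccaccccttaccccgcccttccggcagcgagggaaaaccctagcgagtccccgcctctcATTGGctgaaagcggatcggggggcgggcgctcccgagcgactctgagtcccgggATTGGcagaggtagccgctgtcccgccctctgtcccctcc
Idi1: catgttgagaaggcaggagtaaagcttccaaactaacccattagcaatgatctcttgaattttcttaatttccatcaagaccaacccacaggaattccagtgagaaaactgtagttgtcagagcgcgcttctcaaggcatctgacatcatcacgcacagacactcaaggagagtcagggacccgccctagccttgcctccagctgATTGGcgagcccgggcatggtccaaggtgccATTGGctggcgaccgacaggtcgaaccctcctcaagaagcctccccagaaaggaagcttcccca
Msmo1: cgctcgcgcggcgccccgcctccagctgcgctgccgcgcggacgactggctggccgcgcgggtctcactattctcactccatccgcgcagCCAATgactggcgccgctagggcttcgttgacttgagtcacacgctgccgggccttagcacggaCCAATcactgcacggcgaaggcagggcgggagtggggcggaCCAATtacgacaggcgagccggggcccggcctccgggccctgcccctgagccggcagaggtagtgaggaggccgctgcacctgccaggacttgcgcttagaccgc
Mvk: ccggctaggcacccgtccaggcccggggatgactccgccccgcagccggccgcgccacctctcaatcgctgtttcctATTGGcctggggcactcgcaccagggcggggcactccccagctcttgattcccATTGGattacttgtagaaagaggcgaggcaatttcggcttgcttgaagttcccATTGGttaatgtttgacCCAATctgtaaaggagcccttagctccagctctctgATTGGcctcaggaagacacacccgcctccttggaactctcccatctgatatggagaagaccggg
Ebp: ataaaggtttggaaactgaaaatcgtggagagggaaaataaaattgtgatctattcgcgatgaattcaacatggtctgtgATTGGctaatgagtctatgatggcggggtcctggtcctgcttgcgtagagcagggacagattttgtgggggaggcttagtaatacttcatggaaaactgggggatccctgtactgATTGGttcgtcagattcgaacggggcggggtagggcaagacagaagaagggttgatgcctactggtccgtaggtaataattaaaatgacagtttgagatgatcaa
They lie at chr13:119690101-119690400 (plus strand), chr13:8885356-8885655 (plus), chr8:64733529-64733828 (minus), chr5:114444019-114444318 (plus) and chrX:8193463-8193762 (minus). The element in Hmgcs1 begins at position -137 from the start. The number of CCAAT boxes in these promoters is 4 in Hmgcs1, 2 in Idi1, 3 in Msmo1, 5 in Mvk and 2 in Ebp.

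**Figure D2:**
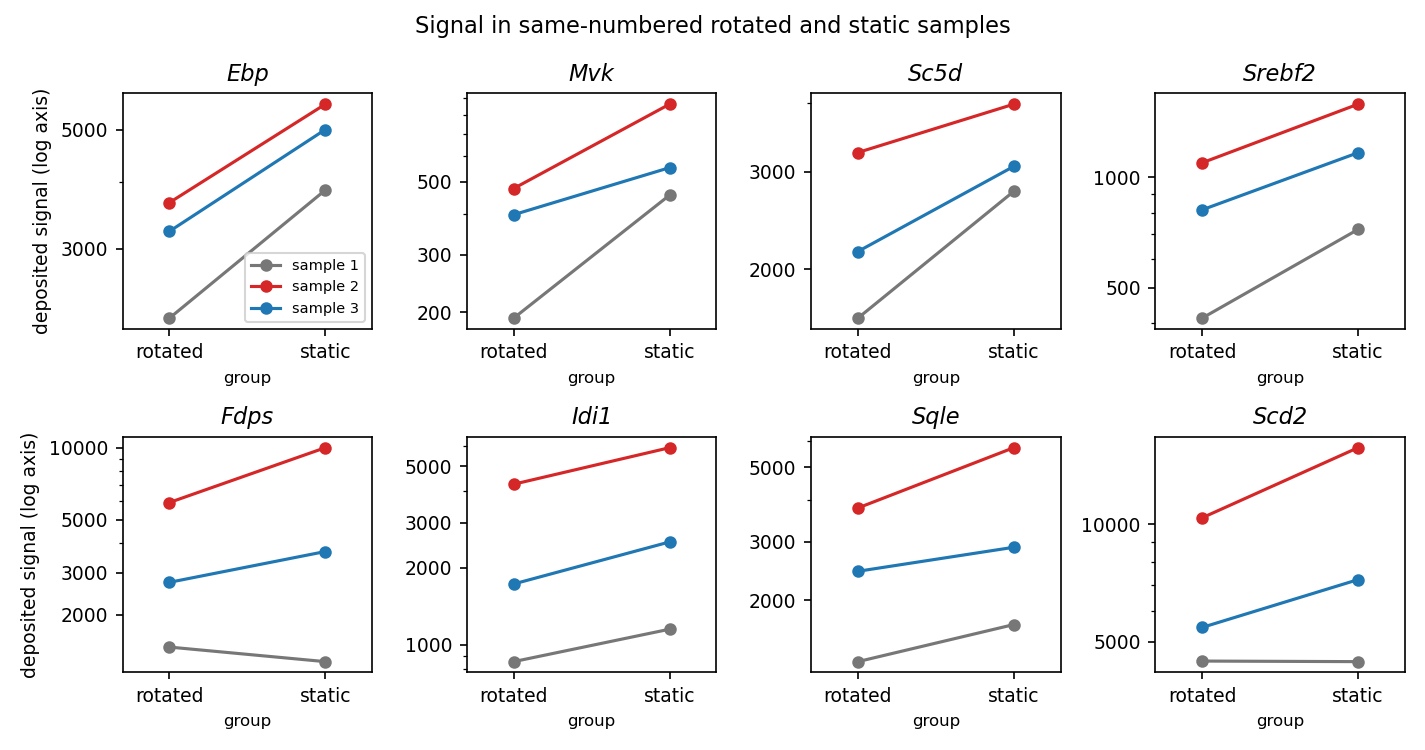
Deposited signal (log axis) of 8 genes in the rotated samples and the static samples; lines join samples of the same number. Sample 2 is highest in both groups for every gene shown, and the rotated sample is the lower of each pair except in pair 1 of Fdps and of Scd2.

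Every same-numbered pair of samples deviated together over all tested probe sets, with correlations of 0.196 to 0.334. For this reason, seen in these same data, the sample number was also fitted as a block. With the block the median standard error of the 31 genes was 0.18, against 0.36 without it; over all genes it was 0.22, against 0.29. At an unadjusted p under 0.05 there were then 9 genes, all lower in the rotated samples, of 31, against 6.75% of all genes that were lower and 15% in either direction. With the block and median centring in place of quantile normalization, an alternative added after the data were seen, there was 1 such gene of 31, against 12.4% of all genes. After adjustment 0 of 31 genes passed (smallest adjusted p 0.182, for Ebp). The 9 genes are the sterol enzyme genes Ebp, Mvk, Sc5d, Idi1, Sqle and Cyp51, the regulator gene Srebf2 and the desaturase genes Scd2 and Fads2. In 14 of 31 genes the rotated sample was below its static partner in all 3 pairs, against 19.4% of all genes, and it was above in all 3 pairs for 2 genes, Hsd17b7 and Acaca, against 23.9%. These counts are of quantile-normalized levels; in the deposited signals 16 genes were lower in all 3 pairs, Scd2 not among them, and 1 was higher, since Acaca was lower in pair 1. The median difference of the 31 genes was -0.05 in pair 1, -0.39 in pair 2 and -0.28 in pair 3. By pair, 16, 26 and 24 of 31 genes were lower in the rotated sample, against 48%, 47.1% and 47.3% of all genes.

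Without pair 1, which holds both arrays that stand apart, 5 genes passed with the block: Ebp (-0.63 ± 0.11, SE), Scd2 (-0.56 ± 0.10), Fdps (-0.59 ± 0.11), Cyp51 (-0.54 ± 0.12) and Idi1 (-0.51 ± 0.12), with adjusted p in limma of 0.0142 to 0.0437. So did 4.03% of all genes. At an unadjusted p under 0.05 there were 16 of 31, against 20.4% of all genes. This fit has 2 pairs only and leans on the pooled variance, and it was added after the data were seen. Without pair 2 and without pair 3, 0 of 31 genes passed with the block, against 0.0637% and 1.64% of all genes, and 2 of 31 had an unadjusted p under 0.05 in each, against 9.82% and 13.2% of all genes. Over all alternative fits the adjusted p of these genes lay between 0.0142 and 1.00, and Fdps stood as high as 0.43 above static (log2) in one of them.

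**Figure D3:**
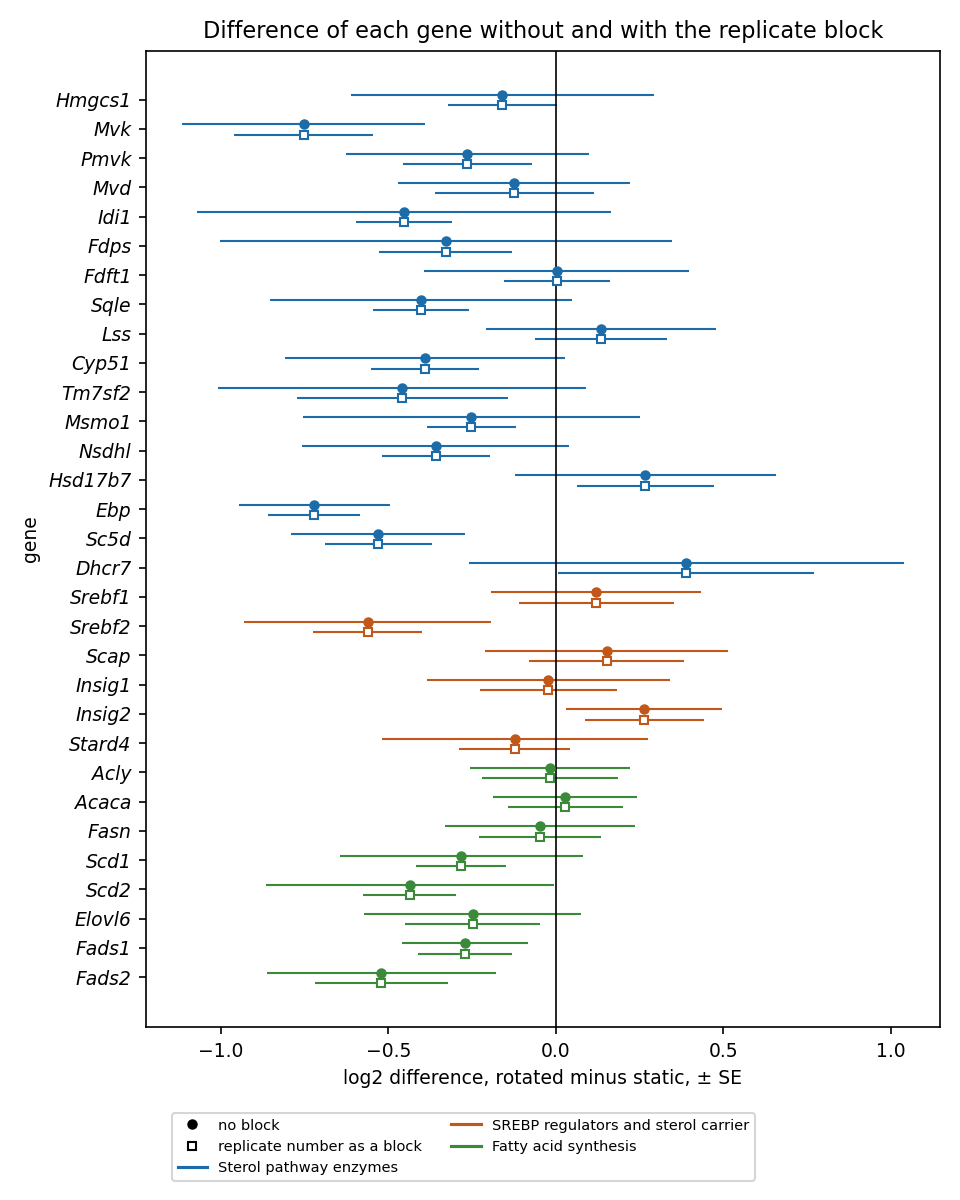
Log2 difference, rotated minus static, with its standard error for each of the 31 genes, without a block (filled circles) and with the sample number as a block (open squares); colours mark the roles. Most points lie left of 0, and the error bars are shorter with the block for most genes.

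In the mevalonate arm, Hmgcs1, the cytosolic HMG-CoA synthase, had 3310.0, 7095.8 and 3361.0 in the rotated samples, against 2676.1, 10171.1 and 3745.6 in the static samples, with overlapping groups. Its difference was -0.16 ± 0.45 (log2, SE), and its other tested probe sets ranged from -0.97 to 0.18. Mvk, mevalonate kinase, had 191.8, 477.3 and 397.0 in the rotated samples, against 455.4, 863.6 and 552.6 in the static samples. Only rotated 2 lay within the static range, and the difference was -0.75 ± 0.36 (adjusted p in limma 0.610, and 0.258 with the block). Mvk was lower in all 3 pairs, with differences of -1.01, -0.82 and -0.43, and its other tested probe set stood at -1.05 ± 0.73. The next enzymes, phosphomevalonate kinase (Pmvk) and the decarboxylase Mvd, differed by -0.26 ± 0.36 and -0.12 ± 0.35.

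In the isoprenoid and squalene steps, Idi1 differed by -0.45 ± 0.62 and Fdps by -0.33 ± 0.67, with 2 of the widest standard errors of the set. With the block they were -0.45 ± 0.14 and -0.33 ± 0.20. The other tested Idi1 probe set stood at 0.15 ± 0.73, with pairs of 1.80, -0.71 and -0.65, so the lower value of Idi1 is that of its brightest probe set. Fdft1, squalene synthase and the first committed sterol step, stood at 0.00 ± 0.40 by its brightest probe set and at -0.52 ± 0.49 by its other tested one. Sqle differed by -0.40 ± 0.45, and lanosterol synthase (Lss) by 0.14 ± 0.34.

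Among the enzymes that turn lanosterol into cholesterol, Ebp, the sterol isomerase, had the smallest p of the 31 genes. It had 2227.1, 3657.2 and 3233.0 in the rotated samples, against 3859.1, 5580.2 and 5004.4 in the static samples. All rotated samples lay below all static samples, as in 7.11% of all genes, and Ebp was the only one of the 31 genes whose groups did not overlap (15.4% of all genes in either direction). The difference was -0.72 ± 0.23 (adjusted p in limma 0.592, and 0.182 with the block), lower in all 3 pairs. Across 23 alternative fits, several of which cannot change the difference, it stayed between -0.86 and -0.40.

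Sc5d, sterol C5-desaturase, had 1632.8, 3252.3 and 2154.4 in the rotated samples, against 2767.0, 3976.3 and 3069.6 in the static samples. Rotated 2 lay within the static range, and the difference was -0.53 ± 0.26. Its other tested probe sets stood at -0.68 ± 0.37 and 0.02 ± 0.28. Cyp51, the lanosterol demethylase, had 1265.5, 2999.5 and 1672.7 in the rotated samples, against 1358.6, 4410.7 and 2438.5 in the static samples, and differed by -0.39 ± 0.42. Nsdhl, a C4-decarboxylating dehydrogenase, had 782.2, 1801.4 and 980.8 in the rotated samples, against 954.7, 2603.1 and 1257.3 in the static samples, and differed by -0.36 ± 0.40. In these deposited signals only rotated 1 lay below the lowest static sample for both genes. By normalized level rotated 3 also did so for Nsdhl.

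Dhcr7, the last reductase of the route, was the sterol enzyme that stood farthest on the higher side, at 0.39 ± 0.65. It had 158.2, 314.2 and 372.9 in the rotated samples, against 84.0, 467.3 and 309.0 in the static samples, and it stood at -0.45 without static 1, whose signal was the lowest. Within the pairs it was 1.44, -0.54 and 0.26. Hsd17b7, a 3-ketosteroid reductase, stood at 0.27 ± 0.39 by its brightest probe set, while its other tested probe sets stood at -0.27 ± 0.37 and -0.62 ± 0.43. The sterol C14-reductase gene Tm7sf2 differed by -0.46 ± 0.55 and Msmo1 by -0.25 ± 0.50. Of the 17 sterol enzymes 13 were lower and 4 higher in value, with a median of -0.33. Leaving out single arrays moved it to 0.12 (static 2), 0.02 (rotated 1), -0.65 (static 1) and -0.69 (rotated 2), and it was 0.16 with the actin covariate and 0.01 with array weights.

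The regulators did not share one direction, with 3 lower and 3 higher in value and a median of 0.05 (-0.02 with the values as deposited). Srebf2, the sterol-directed SREBP gene, had 413.4, 1095.2 and 815.4 in the rotated samples, against 721.0, 1581.6 and 1166.5 in the static samples. The groups overlapped, but each rotated sample was below its partner, and the difference was -0.56 ± 0.37 (adjusted p in limma 0.661, and 0.263 with the block). Its other probe set stood at -0.29 ± 0.43. Srebf1 stood at 0.12 ± 0.31. Insig2, the second retention protein, had 2488.0, 3595.2 and 2042.8 in the rotated samples, against 2045.3, 2258.4 and 2148.0 in the static samples. The static samples lay close together, rotated 1 and rotated 2 stood above them and rotated 3 just below, and the difference was 0.26 ± 0.23.

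Insig1, a retention protein and a target of SREBP itself, stood at -0.02 ± 0.36, and its pairs at 0.38, -0.08 and -0.36. Scap differed by 0.15 ± 0.36 and did not have the common order of samples. It had 800.0, 1120.9 and 2256.8 in the rotated samples, against 1189.8, 848.1 and 1567.4 in the static samples. Sample 3 was highest in both groups. Stard4, a cytosolic sterol carrier, had 1544.2, 2808.5 and 1221.1 in the rotated samples, against 1357.4, 3398.5 and 1487.6 in the static samples. Sample 2 was highest in both groups, and the difference was -0.12 ± 0.40.

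Among fatty acid genes 7 of 8 were lower in value, with a median of -0.26 (0.04 without static 2, -0.13 without rotated 1 and -0.43 without static 1). The desaturases, which put double bonds into fatty acids, carried the larger values. Scd2, a stearoyl-CoA desaturase, had 4466.5, 10395.0 and 5446.1 in the rotated samples, against 4451.5, 15717.1 and 7218.8 in the static samples. The difference was -0.44 ± 0.43 (adjusted p in limma 0.758, and 0.280 with the block), and its other tested probe sets stood at -1.32 ± 0.60 and -1.19 ± 0.57. The first of these differed by -1.84 within pair 1 and by -1.37 and -0.74 within the other pairs; pair 1 includes rotated 1, which has the raised actin ratio, and the part of that array was not tested. Scd1 differed by -0.28 ± 0.36.

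Fads2, the delta-6 desaturase of polyunsaturated fatty acids, had 368.5, 615.2 and 792.9 in the rotated samples, against 532.5, 1169.7 and 983.1 in the static samples. The groups overlapped, and the difference was -0.52 ± 0.34. A second probe set stood at -0.56 ± 0.41 and a dimmer one at 0.85 ± 0.46. Fads1, the delta-5 desaturase, had 3479.5, 4148.2 and 4492.4 in the rotated samples, against 3970.9, 5621.4 and 4614.4 in the static samples, and differed by -0.27 ± 0.19. Its other tested probe set stood at 0.48 ± 0.41. The elongase gene Elovl6 differed by -0.25 ± 0.33.

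The genes of the core route to palmitate stood close to 0 by their brightest probe sets. Acly, which makes cytosolic acetyl-CoA from citrate, stood at -0.02 ± 0.24, the carboxylase gene Acaca at 0.03 ± 0.22 and the fatty acid synthase gene Fasn at -0.05 ± 0.28. A second Acaca probe set stood at -1.05 ± 0.66, with a p for sample number of 0.0397, and 2 further Acly probe sets at 0.15 ± 0.32 and -0.48 ± 0.29. Acaca had 555.8, 703.9 and 676.9 in the rotated samples, against 605.6, 686.9 and 672.1 in the static samples. The groups overlapped, and by this probe set its p for sample number, 0.679, the largest of the 31 genes. Acly, Acaca, Fads1, Srebf1, Insig2 and Mvd are the 6 genes whose unadjusted p for sample number was not under 0.05.

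**Figure D4:**
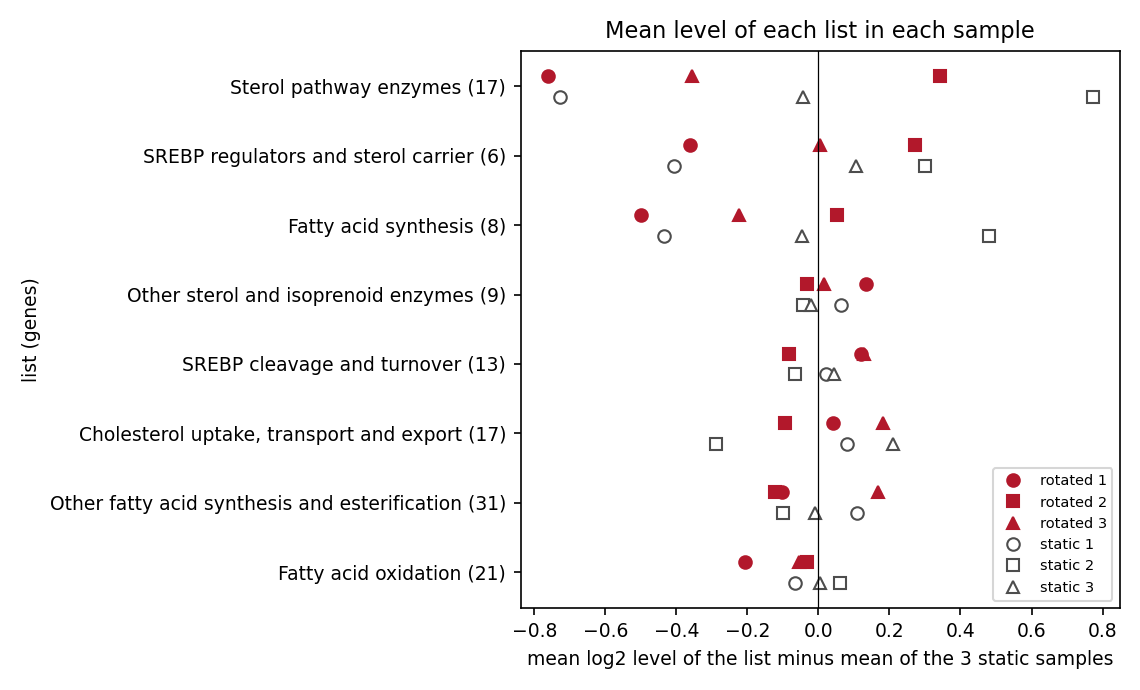
Mean log2 level of each list in each sample, relative to the mean of the static samples; filled red symbols are rotated samples, open grey symbols static samples, and the shape gives the sample number. Sterol enzymes spread from -0.76 to 0.77, while the neighbouring lists lie between -0.29 and 0.21.

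Neighbouring genes of the pathway, listed by name with earlier results of these data known, were counted in the same way. At an unadjusted p for sample number under 0.05 stood 2 of 9 other sterol and isoprenoid enzymes, 4 of 13 genes of SREBP cleavage and turnover, 7 of 17 of cholesterol uptake, transport and export, 9 of 31 of other fatty acid synthesis and esterification, and 6 of 21 of fatty acid oxidation, against 17.9% of all genes. Their list means per sample lay between -0.29 and 0.21. In limma 0 of them passed adjusted over all probe sets, for sample number or for culture condition. By normalized level, sample 2 was lowest in both groups for 5 of the 17 transport genes (Ch25h, Vldlr, Nceh1, Npc2 and Gramd1b), against 15.7% of all genes and 0 of the 17 sterol enzymes. The same held for 4 of 13 genes of SREBP cleavage and turnover, Erlin1, Paqr3, Rnf139 and the SREBP-cleaving protease gene Mbtps2. It held for 7 of 31 genes of other fatty acid synthesis and esterification. It also held for 1 of 9 other sterol and isoprenoid enzymes and 1 of 21 fatty acid oxidation genes. The trait was thus not particular to the transport genes. Of the 5 transport genes, Ch25h and Vldlr had the smallest p for sample number and are given in full, a choice made after their values were seen. Ch25h, which makes 25-hydroxycholesterol, had 3473.5, 1347.3 and 4145.3 in the rotated samples, against 2659.6, 1212.8 and 4741.7 in the static samples. Sample 2 was lowest in both groups (unadjusted p for sample number 0.000105), while the culture conditions differed by 0.06. Vldlr, a lipoprotein receptor, had 5143.5, 1782.1 and 5662.7 in the rotated samples, against 5391.8, 320.6 and 3731.9 in the static samples, again lowest in sample 2 of both groups.

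**Figure D5:**
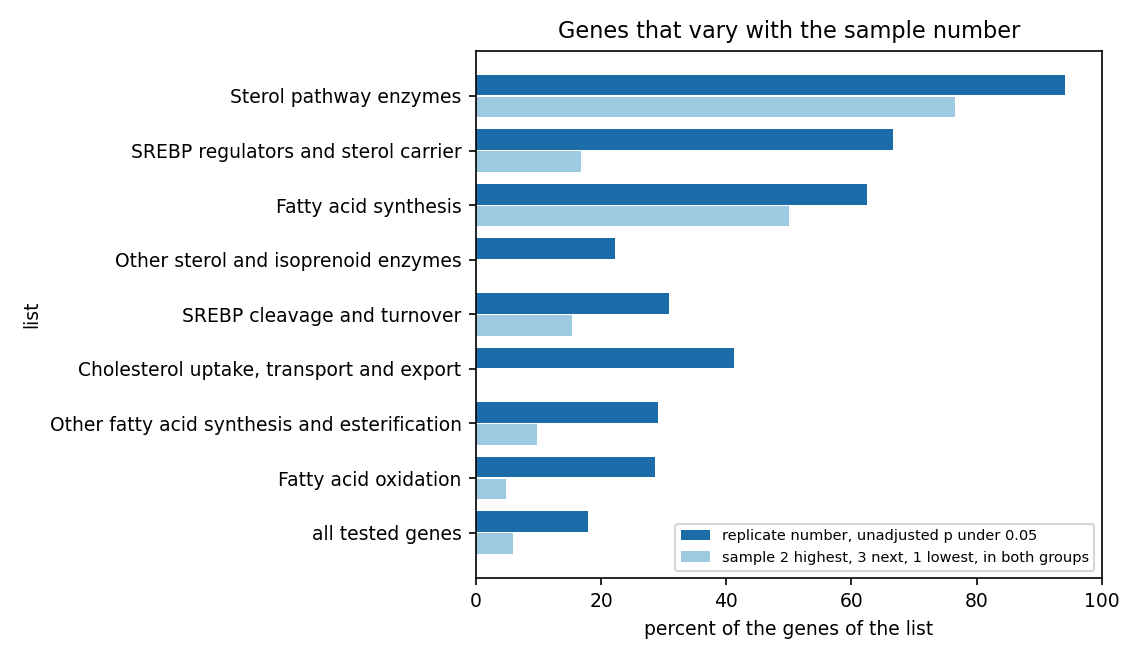
Percent of the genes of each list with an unadjusted p under 0.05 for sample number (dark bars) and percent with sample 2 highest, sample 3 next and sample 1 lowest in both groups (light bars). The dark bars reach 94.1% for sterol enzymes, against 17.9% for all tested genes.

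Between the culture conditions the neighbouring lists had medians of 0.04, 0.06, 0.06, -0.03 and -0.15 in the order just given. At an unadjusted p under 0.05 stood 1 of 9, 2 of 13, 1 of 17, 5 of 31 and 1 of 21 of their genes, against 8.24% of all genes. With the block these counts were 3, 6, 3, 7 and 2, in either direction, against 15% of all genes and 9 of the 31 synthesis genes. The rotated sample was below its partner in all 3 pairs for 3 of 9, 3 of 13, 3 of 17, 8 of 31 and 10 of 21 of them, against 19.4% of all genes; the share for fatty acid oxidation, 47.6%, is as high as the 45.2% of the synthesis genes. Of the first list, the mitochondrial thiolase gene Acat1 differed by -0.51 ± 0.18, Ggps1, which makes the geranylgeranyl donor, by 0.54 ± 0.25, the prenyltransferase subunit gene Fnta by 0.38 ± 0.18 and Nus1, a subunit of the dolichol-making enzyme, by 0.20 ± 0.20. Of the second, Ufd1, a cofactor of protein extraction from the endoplasmic reticulum, differed by -0.51 ± 0.19, the ubiquitin ligase gene Rnf145 by -0.56 ± 0.22, the SREBP-cleaving protease gene Mbtps1 by -0.55 ± 0.25 and the phosphatidate phosphatase gene Lpin1 by 0.50 ± 0.24.

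Of the transport genes Abca1, the exporter of cholesterol to lipoproteins, had 690.3, 481.2 and 482.4 in the rotated samples, against 1131.9, 1062.9 and 1064.2 in the static samples. All rotated samples lay below all static samples, and the difference of -0.95 ± 0.25 was the widest among these 17 genes (adjusted p in limma 0.592, and 0.193 with the block). Gramd1a, a sterol transfer protein gene, stood at 0.57 ± 0.29, the ubiquitin ligase gene Mylip at -0.32 ± 0.19 and the cholesteryl ester hydrolase gene Nceh1 at 0.57 ± 0.35. In the other fatty acid list the elongase gene Elovl7 stood at 1.34 ± 0.40, the acyl-CoA synthetase gene Acsl5 at 0.55 ± 0.18, the mitochondrial carboxylase gene Acacb at -1.32 ± 0.46 and the elongation-cycle dehydratase gene Hacd3 at 0.78 ± 0.29. Elovl7 and Acacb were dim, with deposited signals of 15.1 to 97.9 and 29.3 to 300.4, so their differences are not exact folds. In fatty acid oxidation Echs1, the enoyl-CoA hydratase gene, differed by -0.85 ± 0.26, Acadm by -0.47 ± 0.23, Hadha by -0.44 ± 0.23 and Hadhb by 0.49 ± 0.27.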

How the data were processed

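Total RNA of 3 rotated and 3 static 2T3 samples was measured on 1 array each. The authors deposited 1 linear intensity per probe set and array; the trimmed mean (2% from each end) was 500.0 on every array, so arrays had been scaled to a common target, and the summary software is not given in the sources used here. The number of arrays limits the precision.

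An offset of 16.6, the 20th percentile of the deposited table, was added before taking log2, which shrinks the differences of dim probe sets. Because array medians spread by 85.9%, over the tolerance of 10%, arrays were quantile normalized. The 64 control probe sets and those with a mean below the 40th percentile were left out, leaving 27022. Symbols came from the platform's probe table, updated through gene identifiers of assembly GRCm38.p6. Of 45037 non-control probe sets 34945 had 1 symbol, 932 several and 9160 none.

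limma 3.58.1 in R 4.3.3 (two-sided tests, eBayes with the trend option) was used, with Benjamini-Hochberg adjustment over all tested probe sets; a difference is log2 rotated minus static with its moderated standard error. The fits were also run on simulated data. These had independent noise and sample-number effects in few probe sets, unlike the arrays here, so they do not test the sample-number pattern. Every member is named. Per-sample values are given for the 10 members with the smallest p and, chosen after their values were seen, for Fdps, Idi1, Msmo1, Sqle, Hmgcs1, Dhcr7, Scap, Stard4 and Acaca. In each neighbouring list up to 4 genes of smallest p are named with their differences. Of the neighbouring genes, per-sample values are given for Abca1, Ch25h and Vldlr. Samples were grouped by title. The correlation of deviations from the group means was 0.196, 0.313 and 0.334 for same-numbered pairs, and -0.19 to -0.09 for the others. Deviations within a group cancel out, so the negative values follow from the positive ones and are no separate evidence. The pairing was taken from this check and the shared numbers in the titles. The members, lists and tests were chosen with earlier results of these data known. Promoter sequences are from RefSeq.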

Additional observations from a re-analysis of the deposited data

How the results depend on the processing

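With the sample number as a block (replicate block), 2 probe sets of all tested passed at an adjusted p under 0.05, against 0 without it, and 9 of the 31 genes had an unadjusted p under 0.05, against 1. Of all genes 15% had such a p with the block and 8.24% without it. Array weights gave 22 and 3 (17.9% of all genes). The values as deposited gave 2 genes (8.04%), median centring 0 (4.79%), the actin ratio as a covariate 0 (3.00%), and leaving out static 1 and rotated 1 together 3 (5.87%). Leaving out 1 sample at a time gave 1 to 4 genes, with 4 without static 1 (7.11%) and 3 without rotated 2 (7.32%). Fits added after the data were seen combined the block with other choices: without pair 1, pair 2 and pair 3 they gave 942, 16 and 429 probe sets and 16, 2 and 2 genes (20.4%, 9.82% and 13.2% of all genes), with the values as deposited 2 and 10 (15.5%), and with median centring 72 and 1 (12.4%). The cause of these shifts was not tested; the fits without a pair have fewer samples. Across all alternatives the median of the 31 genes ranged from -0.53 to 0.10. Single genes changed sign most often without static 2 (17 of 31) and with the actin covariate (13 of 31), and 0 changed with a different offset or filter, without the intensity trend, with robust eBayes or under the block alone. Ebp was lower under 23 of 23 alternatives. Of these, the block alone, a different filter, no intensity trend and robust eBayes cannot change the difference of a probe set. The block with the values as deposited, with median centring or without pair 1 repeats the differences of the same fit without the block. The 0 sign changes under such settings, and their share of the 23, were thus fixed in advance. The block changed no call at the adjusted threshold among the 31 genes with all pairs kept. Standard errors of 0.19 to 0.67 leave moderate differences undetected with 3 arrays a group.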
